A study of Mus musculus with 6 samples.

Results

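Mitochondrial protein import and processing genes were followed in embryonic mouse submandibular glands (eSMGs), salivary glands that form beneath the lower jaw. The members were all gene symbols that begin with Timm or Tomm and a digit, the peptidase genes Pmpca and Pmpcb, and Slc25a4, Slc25a5, Hspa9, Grpel1, Grpel2, Pam16, Dnajc19, Samm50 and Mtx1. This gave 36 of the 23260 genes in the count files, and 34 of the 36 had enough counts to be tested. The glands came from ICR mouse embryos at embryonic day 14 (E14) with no genetic alteration named, and were harvested after 6 h of culture, either untreated (control) or in the presence of AMD3100 at 50 µM, which blocks the chemokine receptor CXCR4. Each group had 3 libraries made from tubes of up to 10 glands. The study's methods describe its results in general as independent triplicates, and neither they nor the labels say this of the sequenced tubes in particular, so p-values measure the spread between these tubes, whatever its source. The comparison of AMD3100-treated with control eSMGs asks which transcripts differ early after the receptor is blocked.

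Most mitochondrial proteins are encoded in the nucleus, made in the cytosol and threaded through the mitochondrial membranes. The TOM complex is the entry gate of the outer membrane, small TIM chaperones escort hydrophobic proteins across the intermembrane space, and the TIM22 and TIM23 complexes insert or pass proteins at the inner membrane, the last with the help of a motor built around the heat shock protein mtHsp70. The mitochondrial processing peptidase (MPP), a dimer of the products of Pmpca and Pmpcb, then removes the targeting presequence. The ADP/ATP carriers encoded by Slc25a4 and Slc25a5 are themselves imported through TOM and TIM22 and exchange ADP for ATP across the inner membrane.

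Levels are given as TMM-normalized CPM (a count divided by the scaled size of its library), in the order of replicates 1, 2 and 3 of each group. The libraries were made from the 3′ ends of transcripts, so CPM was not divided by transcript length. Control replicates 1, 2 and 3 held 11532946, 13127539 and 10869528 counts, and the AMD3100 replicates held 14393031, 11358828 and 9051595. A gene with 3 counts stood at between 0.173 and 0.368 CPM, a floor for counting error only. In bulk tissue, fewer cells of a type and less RNA per cell cannot be told apart.

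The libraries did not divide by treatment first. Control replicate 3 and AMD3100 replicate 3 lay at 84.8 and 80.8 on the first principal component, which held 38.2% of the variance, and the other 4 libraries lay between -78.7 and -17.4. These replicate 3 libraries also had the highest skeletal muscle markers. The sum of 13 such markers was 372, 384 and 2119 CPM in control and 255, 216 and 2898 CPM in AMD3100-treated eSMGs, with Myog, a regulator of muscle differentiation, the highest on average. Myog stood at 41.1, 40.0 and 521 CPM in control and 13.9, 9.95 and 485 CPM in AMD3100, and in replicates 1 and 2 the most abundant marker was Actc1, a muscle actin, at 130 and 127 CPM in control and 92.4 and 66.7 CPM in AMD3100. Within replicates 1 and 2, the muscle sum was lower in AMD3100. The values of several members without replicate 3 are given beside those of all libraries.

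MPP showed the largest difference among the members tested, and it lay in Pmpcb, which encodes the catalytic β subunit. The first 250 bases before and 50 bases after the start of Pmpcb, and the same window of Slc25a5, are shown from RefSeq on GRCm38.p6, since these are the members with the lowest p-values. Capitals mark CCGGAAGT, a core sequence bound by the ETS-family factor GABPA, which was searched on both strands together with GCGCATGC for NRF1, TATAAA and CCAAT.

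Pmpcb, chr5:21736910-21737209, plus strand: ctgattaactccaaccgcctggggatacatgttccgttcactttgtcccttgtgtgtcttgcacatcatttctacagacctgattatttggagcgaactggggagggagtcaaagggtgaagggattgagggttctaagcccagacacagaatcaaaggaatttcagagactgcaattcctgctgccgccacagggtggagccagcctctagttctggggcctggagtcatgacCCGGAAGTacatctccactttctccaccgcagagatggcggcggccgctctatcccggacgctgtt
Slc25a5, chrX:36795347-36795646, plus strand: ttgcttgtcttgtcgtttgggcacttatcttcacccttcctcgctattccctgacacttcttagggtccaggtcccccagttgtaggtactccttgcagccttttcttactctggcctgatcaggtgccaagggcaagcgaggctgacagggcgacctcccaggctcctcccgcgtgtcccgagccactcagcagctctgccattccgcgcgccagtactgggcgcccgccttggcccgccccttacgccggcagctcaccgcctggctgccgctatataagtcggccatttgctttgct

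The GABPA letters began 16 bases before the start of Pmpcb, and none of the 4 motifs was found in the window of Slc25a5. Shares are of genes with the letters in at least 1 window, since some genes have more than 1. Of the members, 31 had a window, and the GABPA letters occurred in 6 of them (19.4%), which were Pmpcb, Timm10, Timm10b, Timm23, Timm8a2 and Tomm70a, against 4.31% of 27025 genes with windows of the same length. The NRF1 letters occurred in 2 members (6.45%), Grpel1 and Timm13, against 3.05% of all genes. TATAAA was found in 9.68% of members and 15.7% of all genes, and CCAAT in 35.5% and 41.1%. A match is a description of the letters only.

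**Figure D1:**
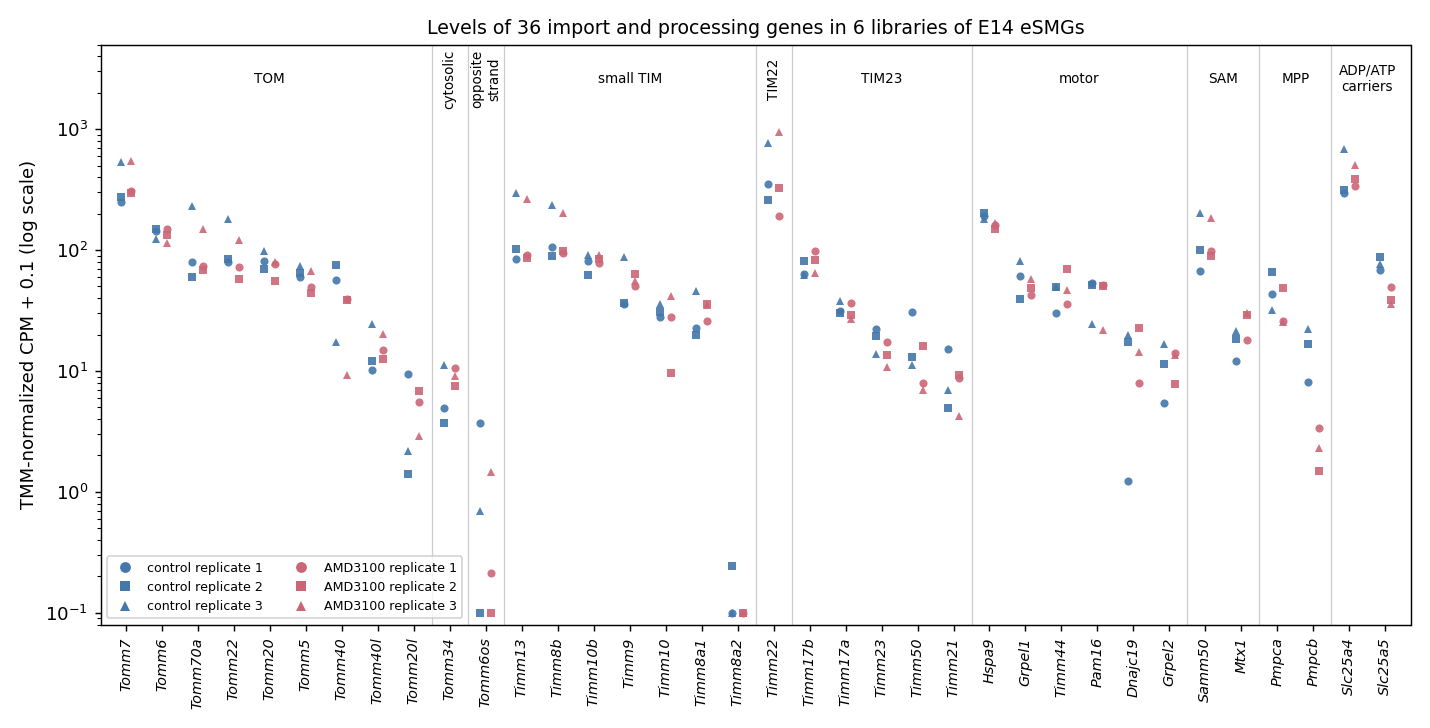
TMM-normalized CPM plus 0.1 on a log scale for the 36 members, grouped by role, with 1 point per library and the groups in 2 colours. The groups overlap for most members, and Pmpcb, Slc25a5 and Hspa9 are the members whose 3 AMD3100 points all lie below the 3 control points.

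In edgeR's quasi-likelihood test with Benjamini-Hochberg adjustment over all 13610 genes tested, 0 of the 34 members had an adjusted p under 0.05, where the share over all genes was 0.0% (0 genes), and the adjusted p was 1.0 for each member. At an unadjusted p under 0.05, 2 members were lower in AMD3100-treated eSMGs, Pmpcb and Slc25a5, where the share over all genes was 1.28%, and 0 were higher, where the share was 0.397%. The median log2 fold change of AMD3100 over control was -0.08 over the members and 0.02 over all genes tested, with 20 members lower and 14 higher. Without control replicate 3 the members' median was 0.033, and in 21 of the 34 members the direction turned when some single library was left out. Such turns were not counted over all genes. All 3 AMD3100 libraries lay below all 3 control libraries in 3 members, Hspa9, Pmpcb and Slc25a5, against 4.17% of all genes, and above them in 0 members, against 3.28%. After quantile normalization, which the study's methods name, 2 members were lower without overlap, Pmpcb and Slc25a5, against 4.02% of all genes. With 3 libraries a group, an exact permutation test of a single gene cannot give a p below 0.1.

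The fit with the replicate number as a block moved these counts. It gave 0 members with an adjusted p under 0.05, where the share over all genes was 0.022%, but at an unadjusted p under 0.05 it gave 5 lower members, Pmpca, Pmpcb, Slc25a5, Tomm22 and Tomm40, against 3.87% of all genes, and 1 higher member, Mtx1, against 2.79%. The labels do not call same-numbered libraries pairs, and replicates 1 and 2 were about as alike across their numbers as within them. When each AMD3100 library was set beside the control of its number, 10 members were lower in all 3 pairs, against 14.6% of all genes, and 3 members, Mtx1, Timm17b and Tomm7, were higher in all 3, against 15.7%. DESeq2, which filters and shrinks the spread in its own way, gave an adjusted p under 0.05 to 1 member, Pmpcb, against 0.0274% of the genes it adjusted, and with the block to 2 members, Pmpcb and Slc25a5, against 0.611%.

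Pmpcb was lower in every AMD3100 library. The control libraries held 92, 226 and 221 counts of it and the treated ones 57, 15 and 18, which is 8.05, 16.5 and 22.04 CPM and 3.28, 1.38 and 2.21 CPM. Every AMD3100 library lay below every control library, and control replicate 1 was the lowest of its group. The means were 15.5 ± 7.04 CPM (SD, n = 3) in control and 2.29 ± 0.953 CPM in AMD3100, a log2 fold change of -2.74 (SE 0.58, adjusted p = 1.0), or 6.70-fold lower. The adjusted p was 0.268 with the replicate block, 0.0488 in DESeq2 and 0.00783 in DESeq2 with the block. Control was higher than AMD3100 by 2.45-fold, 11.9-fold and 9.97-fold in the pairs of replicates 1, 2 and 3. With replicates 1 and 2 only, the log2 fold change was -2.38 (SE 0.78, adjusted p = 0.767).

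Pmpcb lies at chr5:21737160-21757152 of GRCm38, and none of the 16 read-sized stretches from its 3′ end matched another place in the genome. The next gene downstream, Dnajc2, which encodes a chaperone that works at the ribosome, lies 113 bases beyond its end and was looked at after the values were seen. Dnajc2 stood at 36.9, 39.0 and 73.1 CPM in control and 48.8, 72.3 and 82.2 CPM in AMD3100. Its log2 fold change was 0.45 (SE 0.37), so its mean was higher in AMD3100, with overlapping groups. It was higher in each pair, at 0.49 with the block (SE 0.20, adjusted p = 0.722). With replicates 1 and 2 only, it was 0.66 (SE 0.27, adjusted p = 0.828).

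Pmpca (chr2:26389348-26397121), which encodes the α subunit that recognises presequences, differed less. It stood at 43.2, 66.0 and 31.9 CPM in control and 25.6, 48.0 and 25.4 CPM in AMD3100, lower in each pair but with overlapping groups. The log2 fold change was -0.51 (SE 0.39), and -0.52 with the block (adjusted p = 0.722). Without a single library it ranged from -0.88 to -0.19. A gene on the opposite strand, Inpp5e, a phosphatase gene, covers the 3′ end of Pmpca, and whether counting used strand is not stated, so their reads may not be told apart. The counts of Pmpcb per count of Pmpca were 0.187, 0.249 and 0.691 in control and 0.128, 0.0288 and 0.0870 in AMD3100. This ratio therefore did not overlap between groups, with means of 0.376 ± 0.275 and 0.0814 ± 0.05 (SD, n = 3). Uqcrc1 and Uqcrc2, which encode the core proteins of respiratory complex III and are relatives of the MPP subunits, were also looked at after the values were seen. Uqcrc1 had a log2 fold change of -0.12 (SE 0.27) and Uqcrc2 of 0.21 (SE 0.44).

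**Figure D2:**
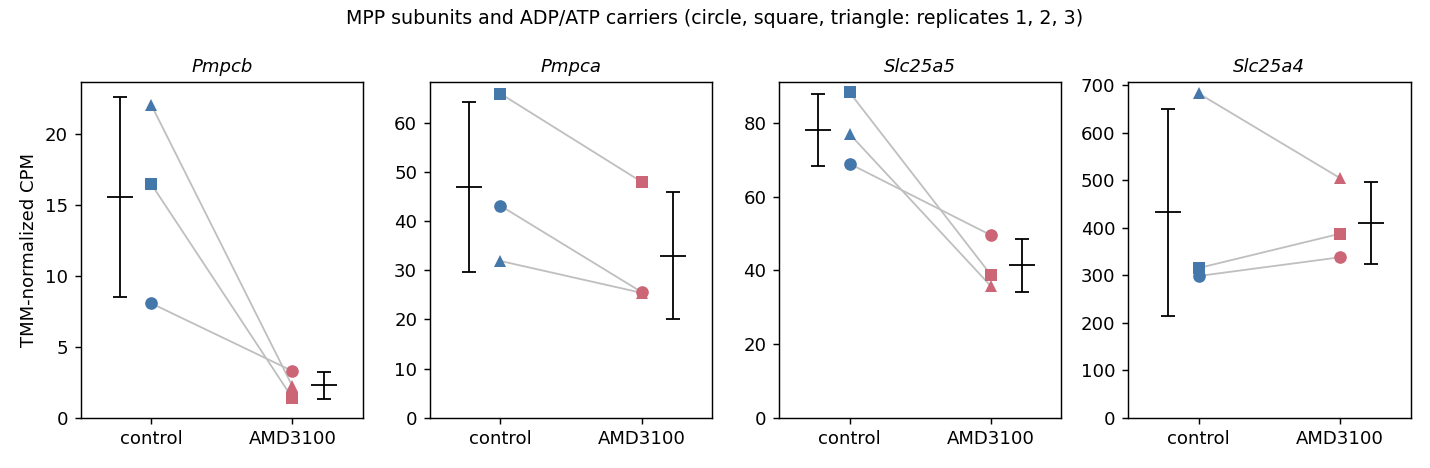
TMM-normalized CPM on linear axes that start at 0 for both MPP subunits and both ADP/ATP carriers, with marker shape for the replicate number and bars for the mean and SD of 3 libraries. Pmpcb and Slc25a5 are lower in all 3 AMD3100 libraries, while the groups overlap for Pmpca and Slc25a4.

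Of the ADP/ATP carrier genes, Slc25a5 was lower in every AMD3100 library, while the groups overlapped for Slc25a4. Slc25a5, which encodes the carrier ANT2 that is common in proliferating cells, stood at 68.9, 88.3 and 77.0 CPM in control and 49.5, 38.8 and 35.7 CPM in AMD3100. The groups did not overlap, and control replicate 3 lay between the other control libraries. The means were 78.1 ± 9.73 and 41.4 ± 7.25 CPM (SD, n = 3), a log2 fold change of -0.92 (SE 0.28, adjusted p = 1.0), or 1.89-fold lower. The adjusted p was 0.268 with the replicate block, 0.911 in DESeq2 and 0.0326 in DESeq2 with the block. The control value was higher by 1.39-fold, 2.27-fold and 2.15-fold in pairs 1, 2 and 3, and with replicates 1 and 2 only the log2 fold change was -0.84 (SE 0.24, adjusted p = 0.746). Slc25a5 lies at chrX:36795597-36798808, and 21 of 26 read-sized stretches from its 3′ end (80.8%) also matched elsewhere in the genome, so its counts are uncertain.

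Slc25a4 (chr8:46207168-46211062), which encodes ANT1, the carrier of heart and skeletal muscle, stood at 298, 315 and 683 CPM in control and 338, 387 and 505 CPM in AMD3100. Both replicate 3 libraries were the highest of their groups, as they were for the muscle markers, whose part in these values was not tested. The log2 fold change was -0.08 (SE 0.39) and ranged from -0.29 to 0.43 when a library was left out, so it had no fixed direction. The counts of Slc25a4 per count of Slc25a5 were 4.33, 3.57 and 8.87 in control and 6.82, 9.98 and 14.1 in AMD3100. The ratio was higher in AMD3100 in each pair, but the groups overlapped, with means of 5.59 ± 2.87 and 10.3 ± 3.66 (SD, n = 3). Slc25a31, an ADP/ATP carrier gene of the germ line that was looked at after its values were seen, had no more than 5 counts in any library.

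The TOM complex was measured through 9 tested genes, 6 lower and 3 higher, with a median log2 fold change of -0.23. The lowest p among them was that of Tomm40, which encodes the channel itself. Tomm40, at chr7:19701313-19715442, stood at 55.9, 75.8 and 17.4 CPM in control and 39.6, 38.9 and 9.09 CPM in AMD3100. The replicate 3 libraries were the lowest of each group, and within each pair the AMD3100 library was lower. The log2 fold change was -0.76 (SE 0.64), and -0.79 with the block (adjusted p = 0.472). With replicates 1 and 2 only, it was -0.75 (SE 0.25, adjusted p = 0.767).

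Among the receptors of TOM, Tomm22, the central receptor, stood at 80.2, 83.8 and 181 CPM in control and 72.8, 57.2 and 120 CPM in AMD3100. It was lower in each pair, with a log2 fold change of -0.46 (SE 0.42) and -0.43 with the block (adjusted p = 0.703), and was -0.34 (SE 0.21) in replicates 1 and 2 only. It turned to 0.033 when control replicate 3 alone was left out, which kept the highest AMD3100 library. Tomm20, the receptor for presequences, had a log2 fold change of -0.23, and Tomm70a, the receptor for carrier proteins, of -0.34, both within overlapping groups. In replicates 1 and 2 only, Tomm70a lay at 0.035 (SE 0.22). The small subunits Tomm5, Tomm6 and Tomm7 lay at -0.31, -0.07 and 0.11, and the paralogs Tomm20l and Tomm40l at 0.24 and 0.03. Tomm34, which carries the family's name but encodes a cytosolic co-chaperone, lay at 0.46, with 4.82, 3.64 and 11.2 CPM in control and 10.54, 7.37 and 8.96 CPM in AMD3100. Tomm6os, an RNA from the strand opposite Tomm6, was not tested, with counts of 41, 0 and 6 for control and of 2, 0 and 11 for AMD3100.

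The small TIM chaperones divided evenly, with 3 of 6 tested genes lower and 3 higher and a median of -0.03. Timm10 (chr2:84827021-84830213), which pairs with the product of Timm9 in the main chaperone ring, had the lowest p of the class and stood at 27.9, 30.4 and 35.6 CPM in control and 27.9, 9.59 and 41.5 CPM in AMD3100. AMD3100 replicate 2 alone was low, and the log2 fold change of -0.25 (SE 0.49) turned to 0.16 without it. Timm9 itself stood at 35.5, 36.7 and 87.6 CPM in control and 50.1, 62.9 and 55.0 CPM in AMD3100, with a log2 fold change of 0.07 (SE 0.39) that was 0.64 (SE 0.26, adjusted p = 0.828) in replicates 1 and 2 only. Timm13 and Timm8b, which belong to the chaperones of the intermembrane space as well, both lay at -0.14, with replicate 3 the highest library of each group, and at -0.078 and -0.022 in replicates 1 and 2 only. The 3′ ends of Timm9 and Timm8b lie under a gene of the opposite strand, so their counts are uncertain. Timm8a2 had 2 counts in 1 control library and 0 in the other 5, and was not tested.

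TIM22, the insertase for carrier proteins, was represented by Timm22 (chr11:76406925-76416313) alone, at 351, 259 and 775 CPM in control and 190, 328 and 942 CPM in AMD3100. Control replicate 3 and AMD3100 replicate 3 were again the highest, and the pairs went both ways. Its log2 fold change was 0.08 (SE 0.62) and ranged from -0.85 to 0.69 when a library was left out. The summed level of the members was 2489, 2514 and 4410 CPM in control and 2371, 2515 and 3957 CPM in AMD3100. The sum did not differ between groups beyond its spread, at 3138 ± 1102 and 2947 ± 877 CPM (SD, n = 3), and was highest in the replicate 3 libraries. Without Timm22, which had the highest level of all members in both replicate 3 libraries, the sums were 2137, 2256 and 3635 CPM in control and 2180, 2186 and 3015 CPM in AMD3100, with replicate 3 again the highest.

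In the TIM23 complex 4 of 5 genes were lower and 1 higher, with a median of -0.27. Timm50 (chr7:28305516-28312046), the receptor that hands presequences from TOM to the channel, stood at 30.4, 12.97 and 11.2 CPM in control and 7.89, 16.1 and 6.88 CPM in AMD3100. Control replicate 1 was the highest library and AMD3100 replicate 2 reached into the control range. The log2 fold change was -0.82 (SE 0.53), and between -1.29 and -0.24 when a library was left out. The channel gene Timm23 lay at -0.42, but 96.2% of the stretches from its 3′ end matched elsewhere in the genome, so its counts are uncertain. The channel partners Timm17a and Timm17b lay at -0.09 and 0.26, and Timm21, which links TIM23 to TOM, at -0.27.

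The import motor had 3 genes lower and 3 higher. Hspa9, which encodes mtHsp70, the ATP-driven chaperone that pulls proteins inward, stood at 191, 201 and 181 CPM in control and 161, 148 and 168 CPM in AMD3100. The groups did not overlap and both spreads were narrow, with means of 191 ± 9.75 and 159 ± 10.1 CPM (SD, n = 3). The log2 fold change was only -0.27 (SE 0.26) and stayed between -0.32 and -0.21 when a library was left out. Timm44, which anchors mtHsp70 at the channel, lay at 0.24, and Grpel1 and Grpel2, its nucleotide exchange factors, at -0.30 and 0.07. Pam16 and Dnajc19, a brake and a stimulator of mtHsp70, lay at -0.06 and 0.23, and Dnajc19 was near 1 CPM in control replicate 1, with 1.14 CPM against 17.2 and 19.7 CPM in the other control libraries. The value of Dnajc19 was 0.75 with the block (adjusted p = 0.848) and 0.71 (SE 0.91) in replicates 1 and 2 only, or 1.47 there with the block (adjusted p = 0.717), and ran from -0.32 to 0.69 when a library was left out. The 3′ ends of Dnajc19, Pam16 and Grpel1 lie under a gene of the opposite strand, so their counts are uncertain.

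The SAM complex, which folds barrel-shaped proteins into the outer membrane, was measured through Mtx1 and Samm50. Mtx1 (chr3:89209081-89213907), which encodes metaxin 1, stood at 11.9, 18.3 and 21.3 CPM in control and 18.1, 28.9 and 30.0 CPM in AMD3100. It was higher in each pair, though the groups overlapped. The log2 fold change was 0.58 (SE 0.37), with the block also 0.58 (adjusted p = 0.746). Samm50, the barrel-forming subunit, lay at 0.01, and at 0.15 (SE 0.22) in replicates 1 and 2 only.

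**Figure D3:**
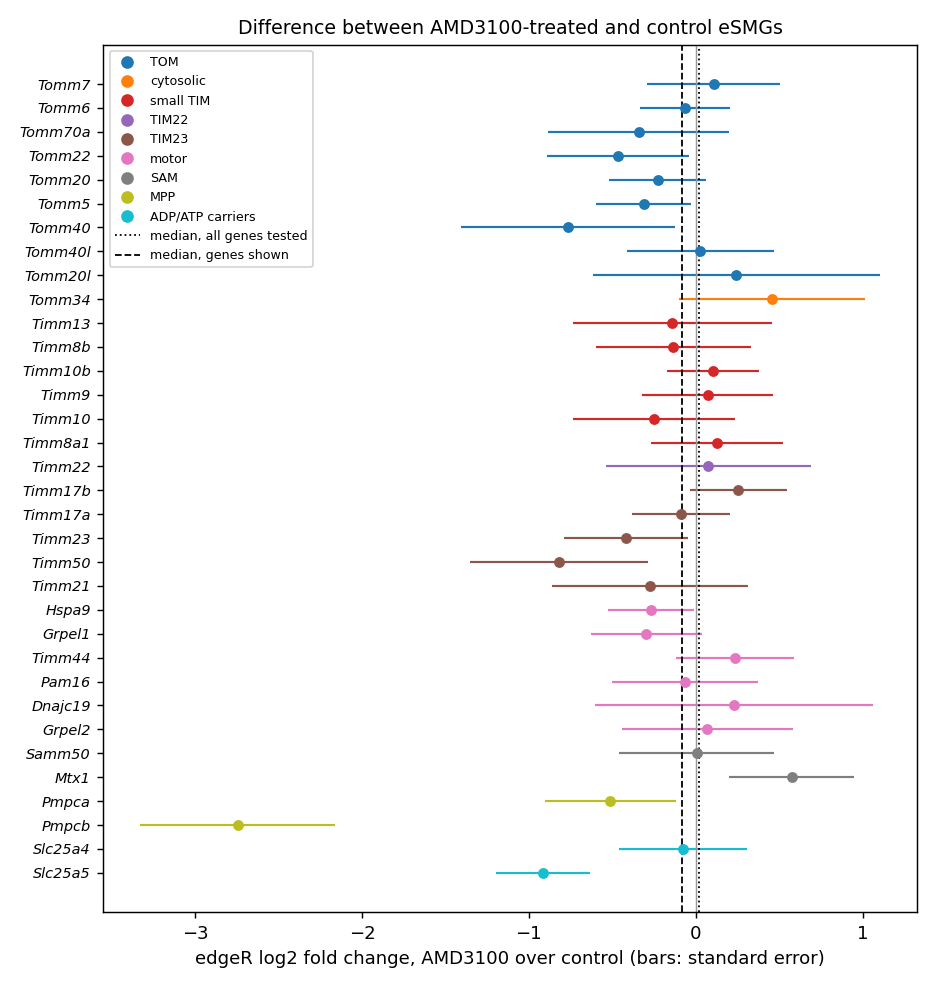
edgeR log2 fold change of AMD3100 over control for the 34 tested members, with bars for the standard error and colour for the role. Pmpcb at -2.74 lies apart from the other members, which run from -0.92 in Slc25a5 to 0.58 in Mtx1.

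Since replicate 3 stood apart on the first principal component, the size of that split was set beside that of the treatment, and replicates 1 and 2 were not compared with each other. Between replicate 3 and the mean of replicates 1 and 2, the median size of the difference over the members was 0.637 on the log2(CPM + 1) scale, against 0.223 between AMD3100 and control. Over all genes tested these sizes were 0.570 and 0.256. The replicate difference was the larger in 27 of 34 members (79.4%) and in 70.9% of all genes. In 12 members both replicate 3 libraries lay above the other 4, against 23.1% of all genes, and in 3 members, Pam16, Tomm40 and Tomm6, below them, against 21.1%. Timm22 and Timm13 were higher in replicate 3 by 1.63 and 1.62, Tomm70a by 1.40, Timm8b by 1.17 and Samm50 by 1.14, while Tomm40 was lower, at -1.92, and Pam16, at -1.13. The same libraries differed in muscle, epithelial and mesenchyme markers, whose part in the members' values was not tested.

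**Figure D4:**
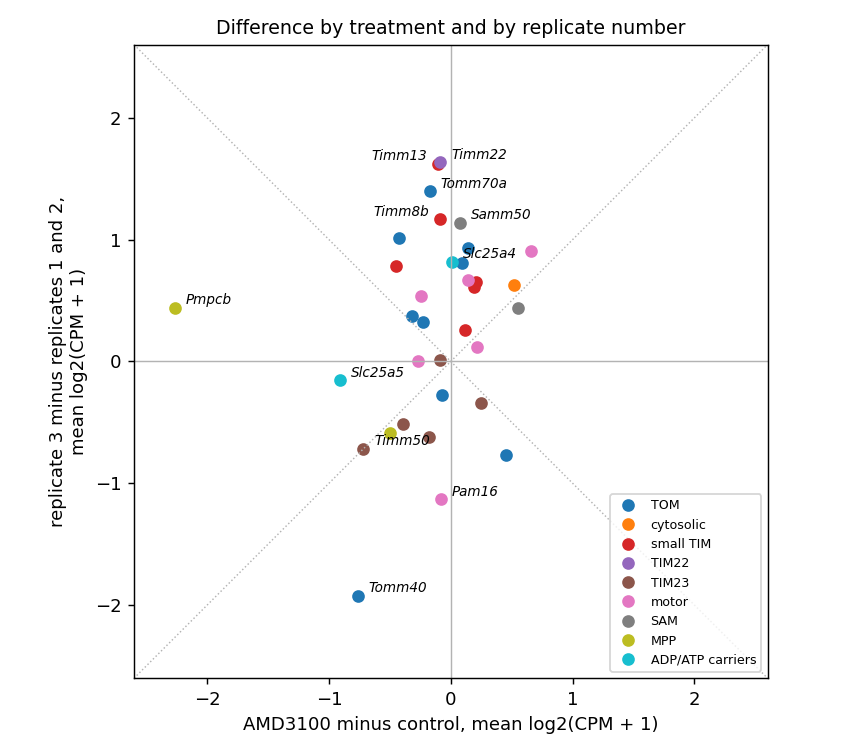
For each of the 34 tested members, the horizontal axis shows the difference of AMD3100 minus control and the vertical axis that of replicate 3 minus replicates 1 and 2, both in mean log2(CPM + 1). In 27 of the 34 the vertical difference is the larger, and it runs from -1.92 in Tomm40 to 1.63 in Timm22, and Pmpcb lies to the left.

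Markers of the cell types in the glands were read beside these results, each list with the gene of the highest mean over the 6 libraries. No marker of the 7 lists that the files hold was at 0 in all 6 libraries, and the epithelium and mesenchyme of the labelled tissue were both present. The summed markers of salivary epithelium, 10 genes led by Cdh1, were 1197, 1241 and 605 CPM in control and 1334, 1336 and 1003 CPM in AMD3100. With and without the block, 7 of the 10 were higher in AMD3100 and 3 lower. In replicates 1 and 2 only, 5 were higher and 5 lower. Over all genes tested without the block, 7100 of 13610 were higher. Mesenchyme, 6 genes led by Col3a1, summed to 3723, 3736 and 1554 CPM in control and 3688, 3700 and 1328 CPM in AMD3100. The epithelium and mesenchyme sums were thus lowest in replicate 3 of each group, where muscle was high. Single markers did not all follow the sums. Cdh1 was highest in AMD3100 replicate 3, at 507 CPM, and Pdgfrb in control replicate 3, at 35.8 CPM.

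Erythroid markers, 9 genes led by Hba-a1, were lower in AMD3100 for 9 of 9 genes without the block and for 8 of 9 with it, with sums of 7239, 19395 and 11326 CPM in control and 7003, 11008 and 11911 CPM in AMD3100. Nerve markers, 6 genes led by Tubb3, summed to 680, 566 and 546 CPM and to 601, 500 and 753 CPM. Endothelial markers, 5 genes led by Kdr, summed to 33.97, 23.7 and 28.2 CPM and to 19.4, 44.4 and 15.6 CPM, and macrophage markers, 5 genes led by Csf1r, to 73.1, 44.7 and 61.1 CPM and to 59.0, 67.7 and 55.1 CPM. The groups overlapped in each of these sums. Of 51 markers tested in edgeR, 0 had an unadjusted p under 0.05, against 1.28% of all genes lower and 0.397% higher. With the replicate block 4 were lower, Myog, Myod1, Hbb-b1 and Hbb-b2, against 3.87% of all genes. In the same fit 2 were higher, Cdh1 and Krt14, against 2.79%. Whatever their p, 3 of 12 muscle markers were lower and 9 higher in the fit without the block, 8 were lower and 4 higher with it, and 10 of the 11 that could be fitted in replicates 1 and 2 only were lower, so the muscle list had no single direction across the fits. With the block, the log2 fold change was -1.16 for Myog (SE 0.31, adjusted p = 0.468 in edgeR and 0.0336 in DESeq2), -0.40 for Hbb-b1 (SE 0.10, adjusted p = 0.450 in edgeR and 0.0180 in DESeq2) and 0.56 for Cdh1 (SE 0.21, adjusted p = 0.703 in edgeR and 0.215 in DESeq2). In replicates 1 and 2 only, 7 of 51 markers were lower at an unadjusted p under 0.05, against 2.96% of all genes. These 7 were all of muscle or red cells. There, 1 marker was higher, against 2.76%, and Myog lay at -1.77 (SE 0.36, adjusted p = 0.478). With the block in these replicates, the embryonic globin gene Hbb-y was lower at -0.86 (SE 0.16, adjusted p = 0.0301), and Myog lay at -1.79 (SE 0.38, adjusted p = 0.0805). The part of these cell types in the values of Pmpcb and Slc25a5 was not tested.

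**Figure D5:**
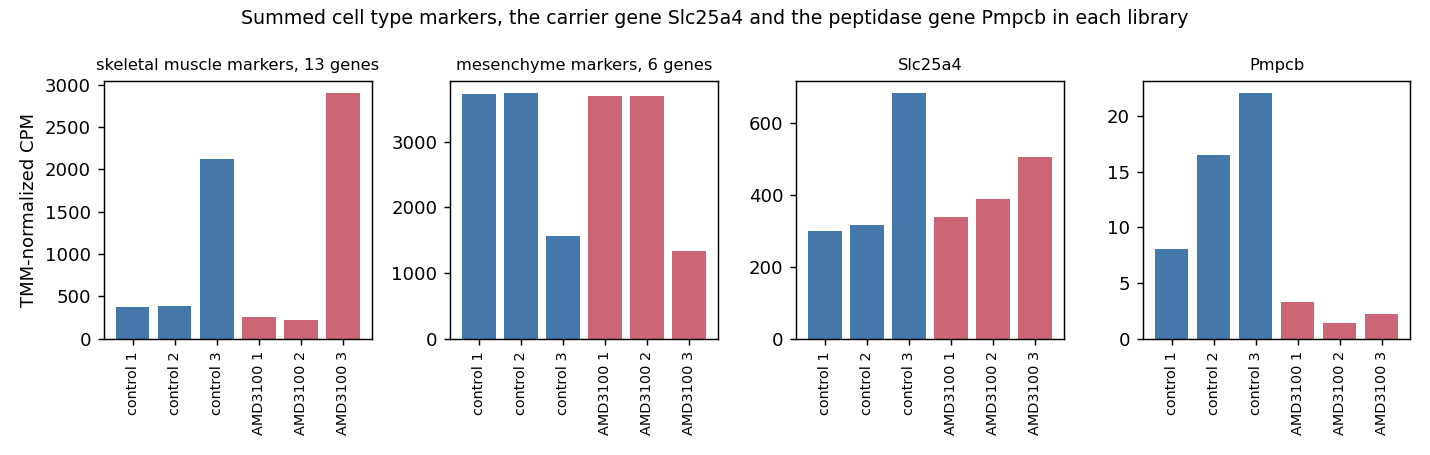
Bars from 0 show TMM-normalized CPM in each of the 6 libraries for summed cell type markers, Slc25a4 and Pmpcb. Muscle markers reach 2119 and 2898 CPM in the replicate 3 libraries, and Pmpcb is below 4 CPM in the 3 AMD3100 libraries only.

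Other genes of import, folding and quality control in mitochondria did not lean in either direction. Of 40 symbols listed, 39 were tested, 19 lower and 20 higher, with a median log2 fold change of 0.05, and the remaining symbol, Magmas, is an older name of the member Pam16. None of them had an unadjusted edgeR p under 0.05 (0 of 39), against 1.28% of all genes lower and 0.397% higher. The lowest p-values belonged to Clpx, the unfolding subunit of a matrix protease, and Htra2, a protease of the intermembrane space. Clpx stood at 12.3, 16.2 and 7.58 CPM in control and 6.62, 3.78 and 7.0 CPM in AMD3100, with a log2 fold change of -1.05 (SE 0.50). Its lowest control library lay just above its highest AMD3100 library, a lack of overlap seen in 4.17% of all genes. Htra2 stood at 56.8, 40.9 and 25.0 CPM in control and 22.5, 32.5 and 18.9 CPM in AMD3100, with overlapping groups and a log2 fold change of -0.73 (SE 0.39). With the block, 2 of the 39 had an unadjusted p under 0.05, both lower, against 3.87% of all genes. These were Htra2 (adjusted p = 0.703) and Vdac1, the pore of the outer membrane (adjusted p = 0.738). Vdac1 stood at 120, 116 and 85.1 CPM in control and 106, 83.3 and 64.7 CPM in AMD3100, with overlapping groups. Hspd1, the chaperonin that folds imported proteins, showed the replicate split instead, at 225, 222 and 743 CPM in control and 247, 290 and 651 CPM in AMD3100.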

How the data were processed

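RNA from E14 eSMGs (3 control tubes, 3 with AMD3100) was turned into libraries with a 3′ mRNA kit and read as 50 bp single reads. The authors deposited a raw read count for every gene symbol of a library, neither normalized nor filtered. The submitters' processing notes name mm10 (GRCm38), Bowtie2 and edgeR without versions, and the annotation and use of strand are not given in the sources used here. The study's methods name quantile normalization. No molecular identifiers are mentioned, so the floor of 3 counts covers counting error only.

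Each file listed 23282 lines. Of 44 lines that repeated a symbol, the 22 copies were left out, which left 23260 genes, 18307 with counts. The ribosomal RNA precursor Rn45s took 16.2% to 32.5% of a library. The groups were compared by edgeR 4.0.16 (R 4.3.3) after TMM scaling. The filterByExpr function kept 13610 genes, for which glmQLFit (not robust) and glmQLFTest were run with treatment as the only term, and p-values were adjusted by Benjamini-Hochberg. The biological coefficient of variation was 0.579. The standard error of a log2 fold change is its size over the square root of F. Fits were tested on simulated data. Same-numbered libraries were set side by side as pairs, though the labels do not call them so. Their deviations from the group means correlated by 0.185, 0.171 and 0.584 for replicates 1, 2 and 3. Replicates 1 and 2 correlated as much across their numbers (0.198 and 0.146), so these values single out a pair for replicate 3 only.

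The alternatives were DESeq2 1.42.0 (Wald test), DESeq2 size factors or upper quartile normalization in edgeR, quantile-normalized values in limma 3.58.1 voom, a filter of 10 counts in every library or none, the replicate block, Rn45s left out, replicates 1 and 2 only and each library left out. DESeq2 with the block, and the block with replicates 1 and 2 only, were chosen after seeing the data. The members, the lists and the markers were chosen with earlier results of these data known. Described with all values were Pmpcb, Slc25a5, their partners Pmpca and Slc25a4, members at an unadjusted p under 0.05 and the member with the lowest p in each class of TOM, small TIM, TIM22, TIM23, motor, SAM, MPP and carrier genes. In the lists of other import genes and of regulators of mitochondrial biogenesis, those at an unadjusted p under 0.05 were named, or otherwise the 2 with the lowest p. Other genes are named as illustrations.

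Positions and promoter windows are RefSeq's on GRCm38.p6. Stretches of 50 bases, taken every 10 bases from the last 300 bases of each member's transcripts in GENCODE vM1 on NCBIM37, were aligned to that genome with minimap2 2.31-r1302. A stretch matched elsewhere in 12 of 36 members, and at least 50.0% of stretches did in 6 (Timm23, Pam16, Timm21, Tomm5, Slc25a5 and Timm8a1). The 3′ ends of 13 members lie under a gene of the opposite strand (Tomm40l, Tomm20l, Timm9, Pam16, Tomm70a, Tomm6, Tomm6os, Timm21, Pmpca, Dnajc19, Grpel1, Timm10b and Timm8b). Timm9 and Tomm20l lie over each other in this way. Since use of strand is not given, reads of these members may not be told apart from those of the other gene.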

Additional observations from a re-analysis of the deposited data

How the results depend on the processing

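Of 13610 genes, 0 had an adjusted edgeR p under 0.05 and 228 an unadjusted p under 0.05. The adjusted and unadjusted counts were 5 and 479 in DESeq2, 3 and 907 with the replicate block, 88 and 1107 in DESeq2 with the block, and 10 and 887 with the block in replicates 1 and 2 only. Replicates 1 and 2 without the block gave 798 at the unadjusted threshold. Leaving out a library gave 163 to 547, with 547 without control replicate 3 and 451 without AMD3100 replicate 3. These fits did not all test the same genes. DESeq2 gave a p to 18267 genes, or 18307 with the block. The fits in replicates 1 and 2 tested 13948 genes, and those without a single library 14197 to 14313. Among the members, 1 was called in DESeq2, against 0.0274% of the genes it adjusted, and 2 in DESeq2 with the block, against 0.611%. The 2 lower members at an unadjusted p became 5 with the block (3.87% of all genes), 4 in replicates 1 and 2 (2.96%), 4 in DESeq2 with the block (3.35%) and 5 with the block in replicates 1 and 2 (3.37%). The 0 higher members became 1 with the block (2.79% of all genes), 1 in replicates 1 and 2 (2.76%), and 2 with the block in replicates 1 and 2 (2.99%). The block in edgeR changed no adjusted call of a member. In replicates 1 and 2 only, 7 members (20.6%) were lower and 7 higher without overlap, near the 18.1% and 18.9% of all genes. Leaving out a library gave 3 to 5 lower and 0 to 6 higher members without overlap, where all genes gave 6.63% to 11.5% and 6.18% to 11.6%. Quantile normalization gave 2 lower members without overlap, against 4.02% of all genes. The 6 higher members came without control replicate 3, where the share of all genes was 11.6%. The members' median of -0.08 ranged from -0.27 without AMD3100 replicate 3 to 0.033 without control replicate 3.

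Pmpcb and Slc25a5 were lower under all 17 alternatives. Pmpcb lay between -3.11 and -2.40 and Slc25a5 between -1.07 and -0.82 when a library was left out, and their adjusted p ranged from 0.00783 to 1.0 and from 0.0326 to 1.0 over the alternatives. Of the 34 members, 21 turned direction when some library was left out, and 13 kept it under all 17 alternatives (Grpel1, Hspa9, Mtx1, Pmpca, Pmpcb, Slc25a5, Timm17b, Timm23, Timm50, Tomm20, Tomm34, Tomm40 and Tomm5). Turned and kept directions were not counted over all genes. Most stretches from the 3′ ends of Slc25a5, Timm23 and Tomm5 also matched elsewhere in the genome. Of the 10 members described in full, Slc25a4, Timm10 and Timm22 turned. Slc25a4 was 0.0045 in limma-voom, 0.014 with the block in edgeR and in DESeq2, and 0.23 in replicates 1 and 2 with and without the block, and ran from -0.29 to 0.43 when a library was left out. Timm22 was -0.14 in limma-voom, -0.080 with the block in edgeR and in DESeq2, -0.24 in replicates 1 and 2 and -0.28 there with the block, and ran from -0.85 to 0.69. Timm10 ran from -0.74 to 0.16. The cause of these changes was not tested. Low counts limit the precision of Pmpcb, with 15 counts in AMD3100 replicate 2, and of Dnajc19, with 13 in control replicate 1. The non-overlap of groups was not run for the tests that leave the scaling unchanged.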

Other observations

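Regulators of mitochondrial biogenesis, a list of 16 genes, were all tested. In AMD3100-treated eSMGs, 4 were lower and 12 higher, with a median log2 fold change of 0.07 against 0.02 over all genes tested. Of the 16, 0 had an unadjusted edgeR p under 0.05, against 1.28% of all genes lower and 0.397% higher. Tfam, which packages mitochondrial DNA and starts its transcription, stood at 39.4, 41.4 and 29.7 CPM in control and 29.6, 22.7 and 16.2 CPM in AMD3100. The lowest control library of Tfam lay just above the highest AMD3100 library, with means of 36.8 ± 6.24 and 22.8 ± 6.70 CPM (SD, n = 3). Its log2 fold change was -0.69 (SE 0.34), and -0.71 with the replicate block (adjusted p = 0.634), where Tfam was the 1 gene of the list with an unadjusted p under 0.05, against 3.87% of all genes lower at that threshold. Ppargc1b, a coactivator of respiratory genes with the next lowest p, had a log2 fold change of 0.76. Gabpa and Nrf1, the factors whose motif letters were searched, had log2 fold changes of 0.04 and 0.37.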
